A study of Mus musculus with 3 samples.

Results

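The 10 genes described here encode proteins of the fibrillin microfibril and of the elastic fibre built on it: the fibrillins Fbn1 and Fbn2, the microfibril-associated proteins Mfap2, Mfap5 and Mfap4, elastin (Eln), and the fibulins Fbln1, Fbln2, Fbln5 and Efemp1. They were taken by gene symbol from the 32285 genes counted in each of 3 single-cell RNA-seq libraries, and each symbol had 1 row. The libraries (replicates 1, 2 and 3) form 1 group and held Alcam+Sca-1- bone-lining cells of wild-type (WT) mice, for which the labels give neither strain nor age, released with collagenase from femora, tibias and iliac bones after the marrow had been flushed out. The cells were sorted as CD45-, Ter119-, CD31-, Sca-1- and Alcam+, so a library is a gated mixture of cell types and not a census of the bone. The study looked for stromal cells of the bone lining that could act on blood-forming cells, with Mfap4 as a candidate factor, and no treatment was compared.

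Fibrillins assemble outside the cell into beaded microfibrils, and Mfap2 (MAGP-1) and Mfap5 (MAGP-2) bind along these. Elastin, delivered with the help of fibulins and cross-linked by lysyl oxidases, fills the core of an elastic fibre around which microfibrils remain as a mantle. Microfibrils also hold latent TGF-β through its binding proteins, and tendon, ligament, artery wall and skin are rich in them. Mfap4, a fibrinogen-related glycoprotein, binds microfibril components and elastin as well as integrins.

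The 3 libraries held 2606, 7172 and 10529 barcodes, of which 19482 of 20307 passed the filters on genes and mitochondrial reads, with median depths of 5663, 10034 and 5995 UMIs (unique molecules) per cell. Between 5 and 28 barcodes were shared by a pair of libraries. Cells were assigned to lineages by lists of 8 marker genes that held none of the 10 members, and 16442 cells passed exactly 1 gate. Replicate 1 stood apart in its makeup: 171 of its cells were chondrocyte-like against 5351 and 8098 in the others, 623 were CAR-like (CXCL12-abundant reticular, the main stromal cell of the marrow) against 81 and 113, and 40.3% passed no gate against 7.64% and 9.72%. Tendon-like cells numbered 158, 91 and 104, osteoblast-like cells 30, 242 and 323, and fibroblast-like cells 27, 41 and 46. Another 514 cells passed the gates of several lineages and were left out as mixed, that is, as candidate doublets.

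The lineage lists below also gated the cells, so the level of a lineage's own list cannot check its name. Cells that passed several lineage gates were left out, which also kept the other lineage lists low. All 8 tendon markers were detected in the tendon-like cells of each library, at a summed 10761, 10940 and 8778 CPM (UMIs per 1000000 UMIs), while the haematopoietic list summed to 11.7, 10.4 and 8.68 CPM with Ptprc and Tyrobp at 0. Tendon-like cells also carried the list of the cartilage surface at 6567 to 7589 CPM and the fibroblast list at 1433 to 2128 CPM. The latter lay above the 800 CPM floor of the fibroblast gate, which also requires UMIs of at least 3 of its markers in a cell. The chondrocyte list in tendon-like cells was 77.1 CPM in replicate 1 but 1715 and 1523 CPM in replicates 2 and 3, the libraries rich in chondrocytes. Fibroblast-like cells held Ly6a, which encodes Sca-1, at 227 ± 97.9 CPM (SD, n = 3) although the sort was Sca-1-. Ly6a belongs to the list that gated these cells, so its level there was partly set by the gate. Fibroblast-like cells carried the chondrocyte list at 178, 2006 and 2100 CPM. The part of these other markers in the member levels was not tested. Haematopoietic cells, which should lack the members and were sequenced to a median of 11016.5 UMIs per cell or more, gave the background: at most 3.4 CPM for any member in any library. Cells of the erythroid gate reached slightly more, at 4.43 CPM for Eln and 3.73 CPM for Fbn1. Osteoblast-like cells were shallower, with medians of 4877.5, 3523.5 and 2029 UMIs, and the background at such depths was not tested.

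The 10 genes differed in the lineages that held them. Mfap4 lay mostly in tendon-like cells, Mfap5 in tendon-like and fibroblast-like cells, Fbln5 and Fbn1 were highest in CAR-like cells, Fbn2 reached its higher levels in osteoblast-like and tendon-like cells, whose ranges overlapped, and Efemp1, near 0 in tendon-like cells, was spread over fibroblast-like, CAR-like and a subset of chondrocyte-like cells. Values are CPM over the summed UMIs of all cells of a lineage in a library. As the assay counts 3′ ends, each gene is compared between lineages and never with another gene.

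**Figure D1:**
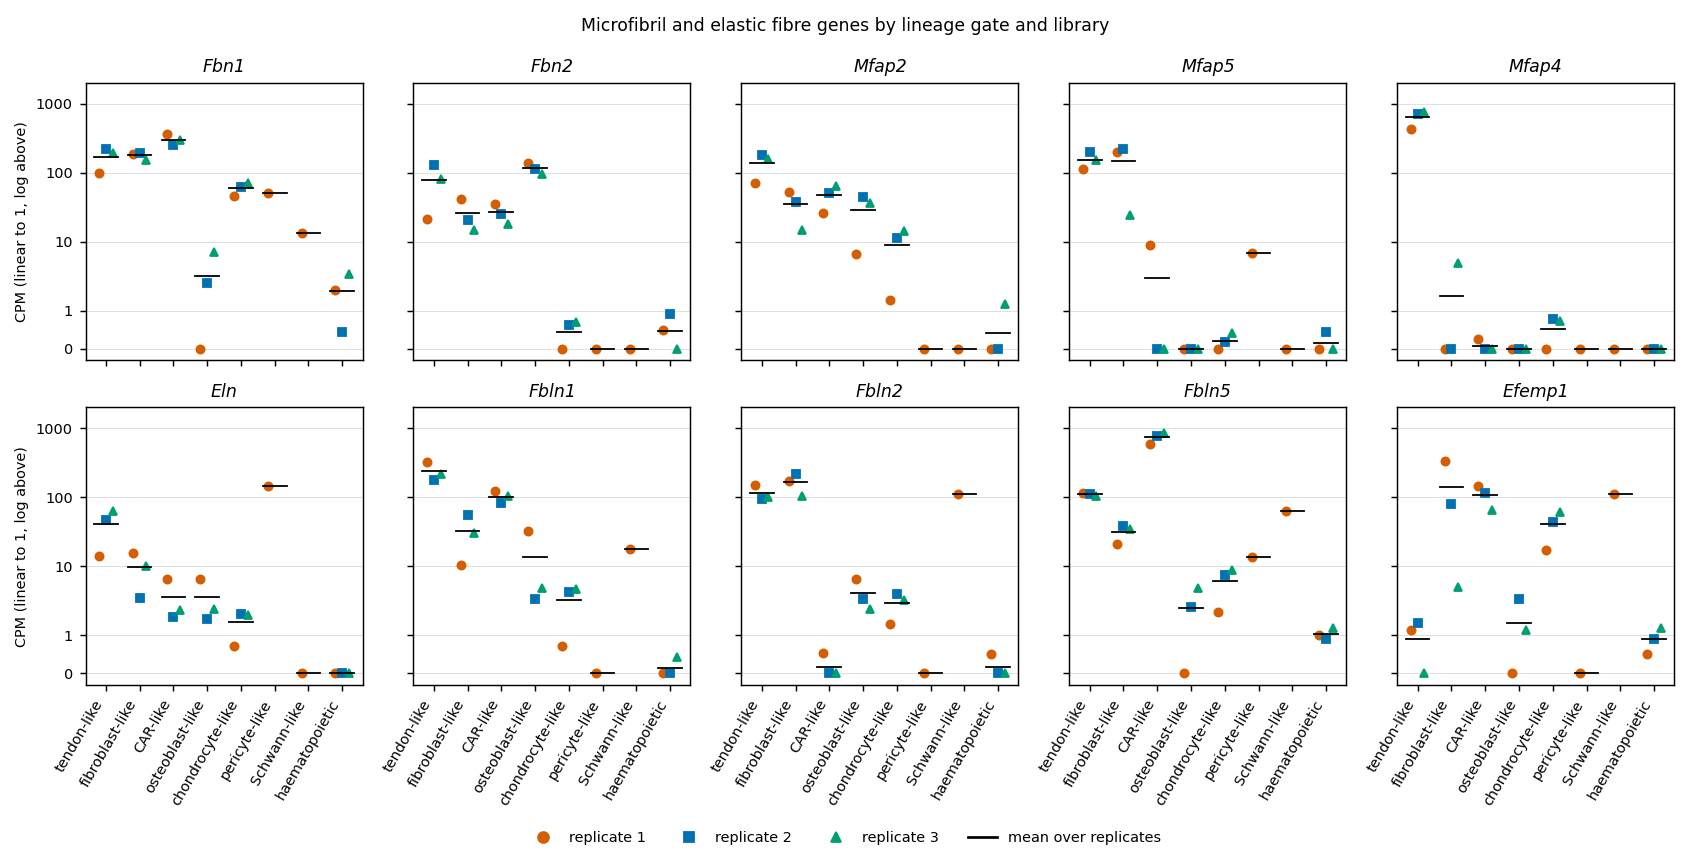
Level of each of the 10 genes (CPM, on an axis that is logarithmic above its linear start) in the lineages of the 3 libraries, 1 point per library and lineage. The tendon-like points of Mfap4 lie between 431 and 768 CPM, above every other lineage, while those of Efemp1 lie at 1.48 CPM or below.

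Tendon-like cells were compared with each of 4 lineages by edgeR's quasi-likelihood test on the summed UMIs, with the library as a block, and a gene was called at an adjusted p below 0.05 over all 13435 genes tested. Against osteoblast-like cells 8 of the 10 members were called, all higher in tendon-like cells, where 22.6% of all genes were called. Against chondrocyte-like cells all 10 were called, 9 higher and 1 lower, beside 31.9% of all genes. Against CAR-like cells 9 were called, 6 higher and 3 lower, beside 20.8% of all genes. Against fibroblast-like cells 5 were called, 4 higher and 1 lower, beside 3.83% of all genes. The median log2 fold change of the 10 members was 4.72, 4.17, 1.37 and 1.70 in these comparisons, while the median over all genes lay between -0.14 and 0.10. The comparisons share the tendon-like sums and are therefore not independent of each other.

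**Figure D2:**
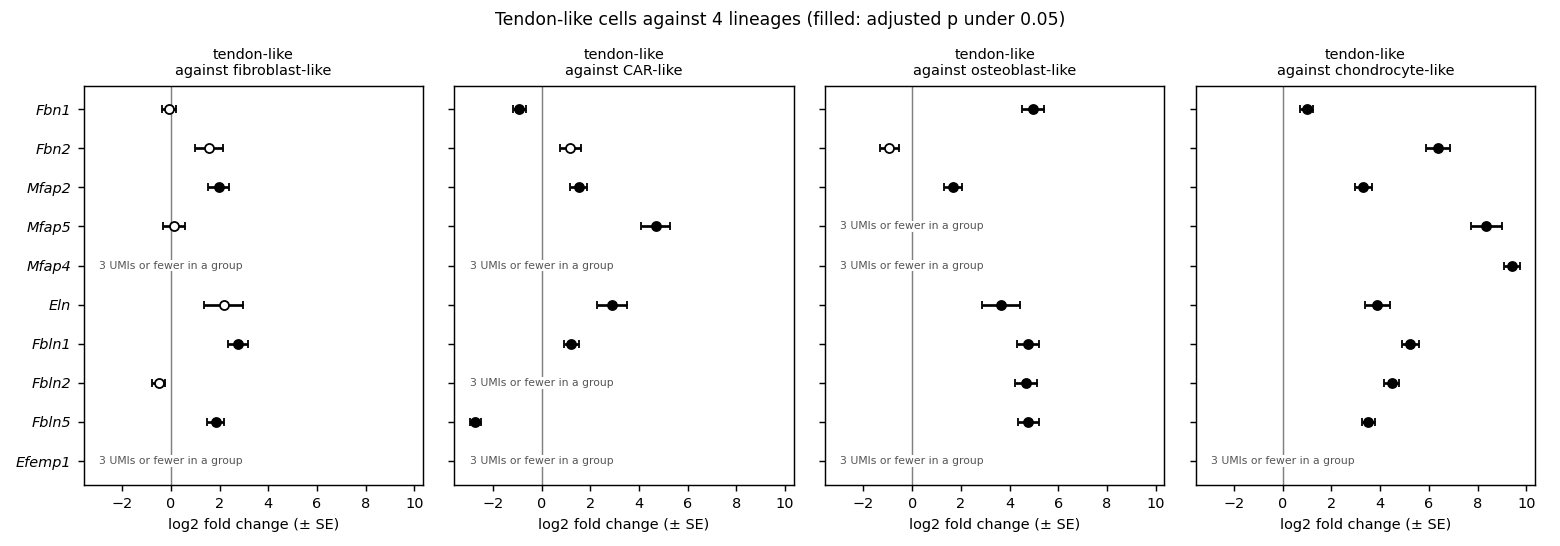
Log2 fold change (± SE) of the 10 genes in tendon-like cells against fibroblast-like, CAR-like, osteoblast-like and chondrocyte-like cells, over 3 libraries, with filled points for an adjusted p under 0.05. Genes with 3 UMIs or fewer in a lineage are marked without a point. Most filled points lie to the right of 0, and Fbn1 and Fbln5 lie to its left against CAR-like cells.

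Of the fibrillins, Fbn1 (chromosome 2, 125300594 to 125507993, minus strand, GRCm38), the main fibrillin of adult tissue, was the most widely detected member. CAR-like cells had 366, 250 and 296 CPM in replicates 1, 2 and 3 (304 ± 58.5, SD, n = 3). Fibroblast-like cells had 188, 193 and 154 CPM, and tendon-like cells 100, 218 and 191 CPM. Every CAR-like sum lay above every fibroblast-like and tendon-like sum, the latter pair overlapped, and replicate 1 was the low one among tendon-like sums. Chondrocyte-like cells had 46.3, 63.0 and 70.9 CPM, yet as the most numerous cells they supplied 72.1% of all 11681 Fbn1 UMIs. Osteoblast-like cells, at 0, 2.53 and 7.13 CPM, were near the background. Fbn1 was lower in tendon-like than CAR-like cells by a log2 fold change of -0.92 ± 0.27 (SE, adjusted p = 0.0144), a call lost without replicate 1 (-0.34, adjusted p = 0.218) and without replicate 3 (-1.05, adjusted p = 0.0548) and with mixed cells kept (-0.86, adjusted p = 0.0907). It was higher than in osteoblast-like cells by 4.96 ± 0.46 (adjusted p = 1.86e-08), or 4.33 without replicate 2 and 5.77 without replicate 3. Against chondrocyte-like cells the difference was 0.97 ± 0.26 (adjusted p = 0.00604), and it lost its call without replicate 2 (0.64, adjusted p = 0.234) or replicate 3 (0.90, adjusted p = 0.0774) and with mixed cells kept (0.81, adjusted p = 0.073). Against fibroblast-like cells the log2 fold change was -0.09 ± 0.30 (adjusted p = 0.967).

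Fbn2 (chromosome 18, 58008623 to 58210487, minus strand), the fibrillin best known from developing tissue, had another order. Osteoblast-like cells had 137, 115 and 96.2 CPM (116 ± 20.6, SD, n = 3), and tendon-like cells 21.0, 129 and 82.4 CPM. CAR-like cells had 35.8, 25.5 and 18.3 CPM and fibroblast-like cells 41.8, 20.6 and 14.9 CPM. Osteoblast-like cells were thus low in Fbn1 and high in Fbn2, while the tendon-like range was wide enough to overlap those of osteoblast-like, CAR-like and fibroblast-like cells. Chondrocyte-like cells stayed at or below 0.70 CPM, and there the tendon-like excess was 6.37 ± 0.49 on the log2 scale, or 5.53 without replicate 2. Fbn2 missed the threshold against osteoblast-like cells (-0.95 ± 0.39, adjusted p = 0.0841), CAR-like cells (1.17 ± 0.43, adjusted p = 0.0544) and fibroblast-like cells (1.57 ± 0.57, adjusted p = 0.161). Without replicate 1, whose tendon-like level was the low one, the CAR-like (2.32, adjusted p = 4.63e-05) and fibroblast-like (2.54, adjusted p = 0.00155) comparisons passed. Over 14 alternatives the CAR-like comparison passed in 8 and the osteoblast-like one in 3, and over 13 the fibroblast-like one passed in 3.

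Mfap2 (chromosome 4, 141010418 to 141015984, plus strand), the microfibril-associated glycoprotein MAGP-1, was highest in tendon-like cells at 71.2, 179 and 161 CPM (137 ± 57.7, SD, n = 3). CAR-like cells followed at 25.9, 51.0 and 64.2 CPM, and fibroblast-like cells at 52.2, 37.8 and 14.9 CPM. Osteoblast-like cells had 6.54, 44.6 and 36.8 CPM and chondrocyte-like cells 1.45, 11.5 and 14.4 CPM. The tendon-like sums did not overlap those of CAR-like cells, and from there down each lineage overlapped the next. The log2 excess in tendon-like cells was 3.31 ± 0.33 over chondrocyte-like cells, 1.67 ± 0.37 over osteoblast-like cells (adjusted p = 0.00154) and 1.52 ± 0.33 over CAR-like cells (adjusted p = 0.0014). The CAR-like call was lost without replicate 2 (1.39, adjusted p = 0.0754). Over fibroblast-like cells it was 1.96 ± 0.45 (adjusted p = 0.00991), or 2.56 without replicate 1, but this call was lost without replicate 2 (adjusted p = 0.276), without replicate 3 (adjusted p = 0.2), with DESeq2 (1.69, adjusted p = 0.0864), with the tendon list without Tnmd and Kera (1.58, adjusted p = 0.0899) and in the fit without the replicate block (1.98, adjusted p = 0.0862).

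Mfap5 (chromosome 6, 122505845 to 122529290, plus strand), or MAGP-2, was shared by tendon-like and fibroblast-like cells. Tendon-like cells had 113, 200 and 154 CPM (156 ± 43.4, SD, n = 3) and fibroblast-like cells 199, 220 and 24.8 CPM (148 ± 107), the last resting on 5 UMIs. The 2 lineages overlapped, with a log2 fold change of 0.13 ± 0.47 (adjusted p = 0.971) that turned to -0.38 without replicate 3. In CAR-like cells Mfap5 was detected in replicate 1 alone, at 8.89 CPM, and it was at 0 in osteoblast-like cells of all 3 libraries and at or below 0.43 CPM in chondrocyte-like cells. Tendon-like cells exceeded chondrocyte-like cells by 8.36 ± 0.62 on the log2 scale, or 7.31 without replicate 2 and 9.11 without replicate 3. They exceeded CAR-like cells by 4.69 ± 0.60 (adjusted p = 4.67e-06), a value that rests on the 34 UMIs of CAR-like cells in replicate 1. Without that library CAR-like cells held none, and tendon-like cells were at least 59.5-fold higher, setting the former at 3 UMIs over the group. By the same floor tendon-like cells were at least 111-fold higher than osteoblast-like cells, or 42.3-fold without replicate 2 and 67.7-fold without replicate 3.

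Mfap4 (chromosome 11, 61485431 to 61488900, plus strand), the integrin-binding glycoprotein on which the study centred, was high in tendon-like cells and near 0 in the other lineages seen in all libraries. Tendon-like cells had 431, 718 and 768 CPM (639 ± 182, SD, n = 3), from 369, 485 and 354 UMIs. The other lineages with 3 libraries reached at most 4.96 CPM, which was a single UMI in fibroblast-like cells of replicate 3. CAR-like cells had 0.26, 0 and 0 CPM, osteoblast-like cells 0 in all 3 libraries, and chondrocyte-like cells 0, 0.79 and 0.74 CPM. No sum of another lineage came near the lowest tendon-like sum. Of all 1523 Mfap4 UMIs, 79.3% lay in tendon-like cells, 12.5% in mixed cells and 6.30% in chondrocyte-like cells. Mixed cells had 183, 29.6 and 19.4 CPM, and in replicate 1 they held 22.4% of the UMIs. A UMI of Mfap4 was seen in 36.1%, 60.4% and 51.0% of tendon-like cells at median depths of 5299.5, 6829 and 4272.5 UMIs, and in 20.3%, 31.9% and 35.6% once each cell was thinned to 1000 UMIs.

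The tendon-like to CAR-like ratio of summed Mfap4 levels was 2917 (95% exact Poisson interval 522 to 115294, counting error only, 1 UMI in CAR-like cells, adjusted p = 1.42e-12). That UMI came from replicate 1, and without it tendon-like cells were at least 242-fold higher. To fibroblast-like cells the ratio was 414 (74.2 to 16381, also from 1 UMI, adjusted p = 1.26e-09), which DESeq2 did not call (adjusted p = 0.244). It was 216 without replicate 2, and without replicate 3, which held that UMI, tendon-like cells were at least 89.6-fold higher. Tendon-like cells were at least 441-fold higher than osteoblast-like cells (182-fold without replicate 2 and 249-fold without replicate 3), and higher than chondrocyte-like cells by 9.40 ± 0.32 on the log2 scale. The tendon list had been drawn up with the link of some of its genes to Mfap4 known. Without Tnmd and Kera, which the study had tied to Mfap4, the mean tendon-like level was 445 CPM, and without Aspn, Sfrp2 and Itgbl1 it was 696 CPM.

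Eln (chromosome 5, 134702593 to 134747323, minus strand), the gene of the elastin core, was low in most lineages. Tendon-like cells had 14.0, 47.4 and 62.9 CPM (41.4 ± 25, SD, n = 3), fibroblast-like cells 15.7, 3.44 and 9.93 CPM, CAR-like cells 6.53, 1.82 and 2.29 CPM, and chondrocyte-like cells 0.72, 2.02 and 1.93 CPM. The highest level was in pericyte-like cells, the mural cells of small vessels, at 144 CPM from 42 UMIs, with a UMI in 33.3% of cells. These numbered 54 in replicate 1 and 1 in each of the others, so that value has no replicate. Tendon-like and fibroblast-like sums overlapped through the low tendon-like level of replicate 1. Eln was higher in tendon-like than CAR-like cells by 2.90 ± 0.62 (adjusted p = 0.00124), osteoblast-like cells by 3.65 ± 0.79 (adjusted p = 0.00147) and chondrocyte-like cells by 3.88 ± 0.51, all on the log2 scale. Without replicate 1 the first of these was 4.77 and the second 4.30. The osteoblast-like call was lost without replicate 3 (3.25, adjusted p = 0.0615). Against fibroblast-like cells the value was 2.16 ± 0.79 (adjusted p = 0.162), and it passed without replicate 1 (3.11, adjusted p = 0.0124) and with no low-count filter (2.17, adjusted p = 0.027).

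Among the fibulins, Fbln1 (chromosome 15, 85205949 to 85286535, plus strand), the fibulin-1 of basement membranes and elastic fibres, was highest in tendon-like cells at 326, 179 and 217 CPM (241 ± 76.1, SD, n = 3). CAR-like cells had 121, 82.0 and 103 CPM and fibroblast-like cells 10.4, 55 and 29.8 CPM. These 3 lineages did not overlap at either step. Osteoblast-like cells had 32.7, 3.37 and 4.75 CPM and chondrocyte-like cells 0.72, 4.22 and 4.69 CPM. The log2 excess in tendon-like cells was 1.22 ± 0.30 over CAR-like cells (adjusted p = 0.0043), lost without replicate 3 (1.28, adjusted p = 0.0595) and with DESeq2 (1.23, adjusted p = 0.16). It was 2.77 ± 0.42 over fibroblast-like cells (adjusted p = 0.000199), 3.80 without replicate 2 and 2.10 without replicate 1, and missed the threshold with doubled marker floors (1.38, adjusted p = 0.051). Over osteoblast-like and chondrocyte-like cells it was 4.76 ± 0.47 and 5.24 ± 0.35.

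Fbln2 (chromosome 6, 91212455 to 91272540, plus strand), fibulin-2, was the counterpart of Mfap5 in being shared by fibroblast-like cells (172, 213 and 104 CPM, 163 ± 55.1, SD, n = 3) and tendon-like cells (151, 93.3 and 99.8 CPM, 115 ± 31.4). In CAR-like cells it was near absent, at 0.52, 0 and 0 CPM from 2 UMIs, which was below osteoblast-like cells (2.38 to 6.54 CPM) and chondrocyte-like cells (1.45 to 3.99 CPM). The tendon-like to CAR-like ratio was 287 (95% exact Poisson interval 78.7 to 2386, adjusted p = 5.98e-11), and without replicate 1, which held both CAR-like UMIs, tendon-like cells were at least 31.5-fold higher. Fbln2 was higher than in osteoblast-like cells by 4.68 ± 0.45 and chondrocyte-like cells by 4.47 ± 0.29 on the log2 scale, and differed from fibroblast-like cells by -0.50 ± 0.28 (adjusted p = 0.449). Schwann-like cells, present in number only in replicate 1, had 111 CPM.

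Fbln5 (chromosome 12, 101746565 to 101819055, minus strand), the integrin-binding fibulin-5 that carries elastin to microfibrils, was the opposite in CAR-like cells. These had 595, 767 and 858 CPM (740 ± 133, SD, n = 3), with a UMI in 84.4%, 86.4% and 79.6% of cells, and supplied 64.0% of all 4802 UMIs. Tendon-like cells had 114, 110 and 104 CPM and fibroblast-like cells 20.9, 37.8 and 34.8 CPM. The lineages fell into separate steps, CAR-like above tendon-like above fibroblast-like above chondrocyte-like cells (2.17, 7.34 and 8.76 CPM), with no overlap at any step. The tendon-like level was below the CAR-like one by -2.71 ± 0.23 on the log2 scale (adjusted p = 3.02e-09). It was above fibroblast-like cells by 1.84 ± 0.34 (adjusted p = 0.00161), chondrocyte-like cells by 3.52 ± 0.26 and osteoblast-like cells by 4.78 ± 0.42, the last being 5.37 without replicate 3.

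Efemp1 (chromosome 11, 28853204 to 28926743, plus strand), fibulin-3, was the member that tendon-like cells lacked. They had 1.17, 1.48 and 0 CPM, which was 2 UMIs in 353 cells. Fibroblast-like cells had 334, 79.1 and 4.96 CPM (139 ± 173, SD, n = 3), CAR-like cells 143, 115 and 64.2 CPM (108 ± 40.1) and chondrocyte-like cells 17.4, 44.1 and 60.1 CPM. The fibroblast-like level came from 64, 23 and 1 UMIs and spanned the ranges of both other lineages, whereas the CAR-like and chondrocyte-like sums did not overlap. Chondrocyte-like cells supplied 85.5% of all 7596 UMIs. Osteoblast-like cells were also near 0, at 0 to 3.37 CPM from 5 UMIs. Their difference from tendon-like cells was not called (adjusted p = 0.62). Schwann-like cells, present in number only in replicate 1, had 111 CPM. The ratio to tendon-like cells was 133 for CAR-like cells (95% exact Poisson interval 36.5 to 1097, adjusted p = 1.3e-05), 128 for fibroblast-like cells (34.5 to 1076, adjusted p = 0.000199) and 51.0 for chondrocyte-like cells (14.1 to 421, adjusted p = 5.78e-05). The fibroblast-like ratio was 55.4 without replicate 1 and 218 without replicate 2, and the chondrocyte-like one 77.9 without replicate 2 and 33.4 without replicate 3.

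The windows before the transcript starts of 4 members are shown because these genes differ between CAR-like and tendon-like cells: Fbn1 and Fbln5 are highest in CAR-like cells, Fbln2 is near 0 there, and Efemp1 is near 0 in tendon-like cells. RefSeq windows (GRCm38.p6) were found for 6 of the 10 members, in 9 windows over alternative starts. Each run below is the 250 bases before a start, 5′ to 3′ on the gene's strand, with E-boxes (CANNTG, the letters bound by basic helix-loop-helix factors such as the tendon factor Scx) in capitals. The windows are chr2:125506439-125506688 (minus strand) for Fbn1, chr12:101819120-101819369 (minus strand) for the more upstream start of Fbln5, chr6:91212514-91212763 (plus strand) for Fbln2 and chr11:28852955-28853204 (plus strand) for Efemp1. Those of Fbn1 and Fbln2 lie inside the gene span of GENCODE, which places a start further upstream.
Fbn1: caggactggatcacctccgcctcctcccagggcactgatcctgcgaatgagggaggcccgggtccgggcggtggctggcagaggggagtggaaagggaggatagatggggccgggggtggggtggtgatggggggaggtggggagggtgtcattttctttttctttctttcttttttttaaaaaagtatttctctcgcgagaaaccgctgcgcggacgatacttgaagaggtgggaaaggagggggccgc
Fbln5: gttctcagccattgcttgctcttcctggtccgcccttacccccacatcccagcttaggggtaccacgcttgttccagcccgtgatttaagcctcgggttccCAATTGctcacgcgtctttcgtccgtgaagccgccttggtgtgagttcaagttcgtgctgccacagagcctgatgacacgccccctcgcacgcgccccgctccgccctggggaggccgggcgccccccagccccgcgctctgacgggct
Fbln2: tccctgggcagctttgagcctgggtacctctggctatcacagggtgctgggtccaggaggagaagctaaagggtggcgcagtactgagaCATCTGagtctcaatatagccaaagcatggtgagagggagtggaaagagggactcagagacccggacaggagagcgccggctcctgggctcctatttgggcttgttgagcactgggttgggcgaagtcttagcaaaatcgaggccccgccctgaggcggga
Efemp1: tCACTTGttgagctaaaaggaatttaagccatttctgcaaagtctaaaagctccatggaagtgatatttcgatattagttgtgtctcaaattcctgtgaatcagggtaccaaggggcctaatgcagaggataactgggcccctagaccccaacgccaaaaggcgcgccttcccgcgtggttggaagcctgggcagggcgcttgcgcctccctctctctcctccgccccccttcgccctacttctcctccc
The Fbn1 window held no E-box and the others 1 each, at 149 bases before the start in Fbln5, 161 in Fbln2 and 249 in Efemp1. E-boxes are common, being present in 66.2% of 32851 windows of this length, so their number here does not set the genes apart. Neither TATAAA (in 12.4% of all windows) nor the EBF motif (TCCC and GGGA with 2 bases between, in 0.779%) was found on either strand in any of the 9 windows.

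Fibroblast-like cells were also compared with chondrocyte-like cells, where 6 of the 10 members were called, all higher in fibroblast-like cells, beside 19.1% of all genes. Mfap5 led at 8.24 ± 0.67 on the log2 scale (6.71 without replicate 2 and 9.49 without replicate 3), followed by Fbln2 at 4.97 ± 0.31 and Fbn2 at 4.80 ± 0.81. The other calls were Fbln1 (2.48 ± 0.54, adjusted p = 0.00179), Fbln5 (1.68 ± 0.40, adjusted p = 0.00367) and Fbn1 (1.06 ± 0.29, adjusted p = 0.011), and these 3 were lost without replicate 2, where Fbln1 was 1.59 (adjusted p = 0.253). Fbn1 was also lost without replicate 3 (1.14, adjusted p = 0.0536), with doubled marker floors (1.12, adjusted p = 0.105) and with mixed cells kept (0.81, adjusted p = 0.124). Mfap2 was not called (1.35, adjusted p = 0.0642), but passed under RLE scaling (1.61, adjusted p = 0.0272), with DESeq2 (1.96, adjusted p = 0.011), with no low-count filter (1.18, adjusted p = 0.0453) and without replicate 3 (2.01, adjusted p = 0.0301). Efemp1 missed the threshold (0.86, adjusted p = 0.299), with a value of -0.52 without replicate 1 and 1.80 (adjusted p = 0.0171) without replicate 3, the library in which fibroblast-like cells held 1 UMI of it.

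Within chondrocyte-like cells, Efemp1 and Fbn1 were unevenly spread over zones. Cells of the cartilage surface (106, 1318 and 2404 cells, gated on Cilp, Prg4 and 4 other genes) were compared with the remaining 65, 4033 and 5694 cells. Over all libraries only 556 of the 3828 surface cells passed no other zone gate, so the comparison is not one of separate zones. Of the 7 members with enough UMIs to be tested, 5 were called, 1 higher and 4 lower at the surface, beside 41.5% of all 14756 genes. Fbn1 was 67.6, 115 and 99.4 CPM at the surface against 17.2, 51.3 and 61.3 CPM in the rest, with no overlap and a log2 fold change of 1.19 ± 0.16 (adjusted p = 9.27e-05). Efemp1 went the other way, at 0, 8.54 and 12.2 CPM against 41.2, 52.1 and 76.3 CPM (-2.50 ± 0.14, adjusted p = 8.22e-08). Fbln1 (-1.21 ± 0.24, adjusted p = 0.00161), Fbln2 (-1.03 ± 0.30, adjusted p = 0.0157) and Fbln5 (-0.64 ± 0.20, adjusted p = 0.0229) were lower at the surface, at levels of at most 10.0 CPM in any library, and each of these calls was lost without replicate 2 and without replicate 3. In replicate 1, with few cells, Fbln2 (2.50 against 0 CPM) and Fbln5 (3.75 against 0 CPM) went the other way, and both calls were also lost with DESeq2 (adjusted p = 0.258 and 0.559). Mfap2 and Eln had log2 fold changes of 0.00 and 0.02.

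Cells that passed a single zone gate were numerous enough in replicates 2 and 3 alone, except at the surface, and are described without a test. Over all libraries they were 3595 of 4215 growth plate-like, 748 of 2459 hypertrophic-like, 404 of 830 Wnt-active and 755 of 5213 Wif1 group cells. Efemp1 was concentrated in Wnt-active cells, which carry Wnt target genes such as Lef1, Notum and Axin2, at 321 and 327 CPM with a UMI in 79.9% and 71.0% of 184 and 217 cells. Hypertrophic-like cells, the late stage marked by Col10a1 and Ibsp, had 101 and 120 CPM, and growth plate-like cells 17.7 and 26.0 CPM. Cells with the Wif1 group of markers had 10.4 and 26.1 CPM and those of the surface 0, 15.1 and 21.5 CPM. Replicates 2 and 3 placed the Wnt-active and hypertrophic-like cells first and second, and both were far above the other zones. The Wnt-active gate is a range rather than a discrete type, as 612 cells lay up to 20% below its floor and 568 up to 25% above it, out of 830 in all that passed it.

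Fbn1 had another order over these zones: surface cells had 79.6, 181 and 147 CPM, hypertrophic-like cells 118 and 105 CPM, cells of the Wif1 group 87.6 and 99.4 CPM and Wnt-active cells 81.8 and 79.3 CPM. Growth plate-like cells, at 27.4 and 35.0 CPM, were the low ones. Fbln2 was low throughout but was 7.0 and 6.47 CPM in growth plate-like cells against 0.36 and 0.33 CPM in hypertrophic-like cells. Mfap2 was 23.8 and 14.2 CPM in Wnt-active cells, and Mfap4, Mfap5 and Fbn2 stayed at or below 2.1 CPM in every zone.

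**Figure D3:**
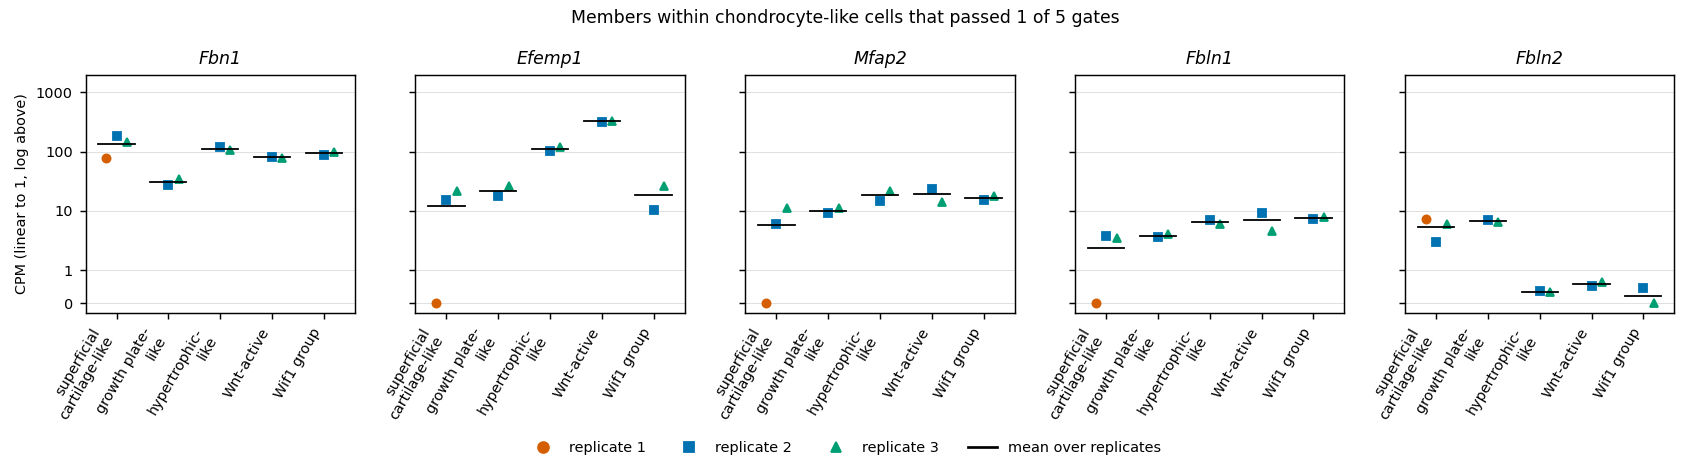
Levels of Fbn1, Efemp1, Mfap2, Fbln1 and Fbln2 (CPM) in 5 zones of chondrocyte-like cells that passed a single zone gate. Each point is 1 library with at least 20 cells in the zone. Efemp1 reaches 321 and 327 CPM in Wnt-active cells, and Fbn1 is lowest in growth plate-like cells at 27.4 and 35.0 CPM.

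UMIs of Mfap4, Mfap5 and the other members were unevenly spread over tendon-like cells, and the part of low counts and depth in this was not tested. The 10% of tendon-like cells richest in Mfap4 held 69.1%, 41.9% and 45.2% of its UMIs in replicates 1, 2 and 3, and the like share for Mfap5 was 84.5%, 72.6% and 69.0%. For Eln this share was higher than for Mfap4 in each library (100%, 96.9% and 82.8%). For Fbn1 it was lower in each (50%, 39.5% and 40.9%). The median tendon-like cell held UMIs of 3, 4 and 3 members, against 3, 3 and 2 in CAR-like cells, 3, 2 and 1 in fibroblast-like cells and 0 in osteoblast-like cells. These counts are at unequal depths. With cells thinned to 1000 UMIs, the mean was 0.94, 1.14 and 1.26 members in tendon-like and 1.02, 0.98 and 0.95 in CAR-like cells. It was 0.78, 0.61 and 0.37 in fibroblast-like and 0.10, 0.17 and 0.12 in osteoblast-like cells. The gate itself has a soft edge, since 356 cells of any kind lay up to 20% below its floor of 2000 CPM and 322 up to 25% above it.

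Tendon-like cells with a Mfap4 UMI (57, 55 and 53 cells) were set beside those without (101, 36 and 51 cells). Their median depths were close but higher in each library, at 5646, 6931 and 4504 UMIs against 5084, 6333 and 4127. Fbln2 was seen in 56.1%, 49.1% and 41.5% of cells with Mfap4 and in 20.8%, 33.3% and 23.5% of those without. Fbln5 was seen in 52.6%, 54.5% and 45.3% against 34.7%, 25% and 11.8%, and Mfap5 in 28.1%, 30.9% and 34.0% against 12.9%, 16.7% and 17.6%. These 3 genes, and Mfap2 by as little as 29.8% against 26.7% in replicate 1, were more often found beside Mfap4 in every library. Fbln1 split by library, at 68.4% against 68.3% in replicate 1 but 80% against 25% and 73.6% against 23.5% in the others. Fbn1 likewise had 33.3% against 34.7% in replicate 1, and 78.2% against 41.7% and 60.4% against 43.1% in replicates 2 and 3. Eln and Fbn2 had no common direction over the 3 libraries. Cells of 1 library share their source, and the part of depth in these shares was not tested.

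**Figure D4:**
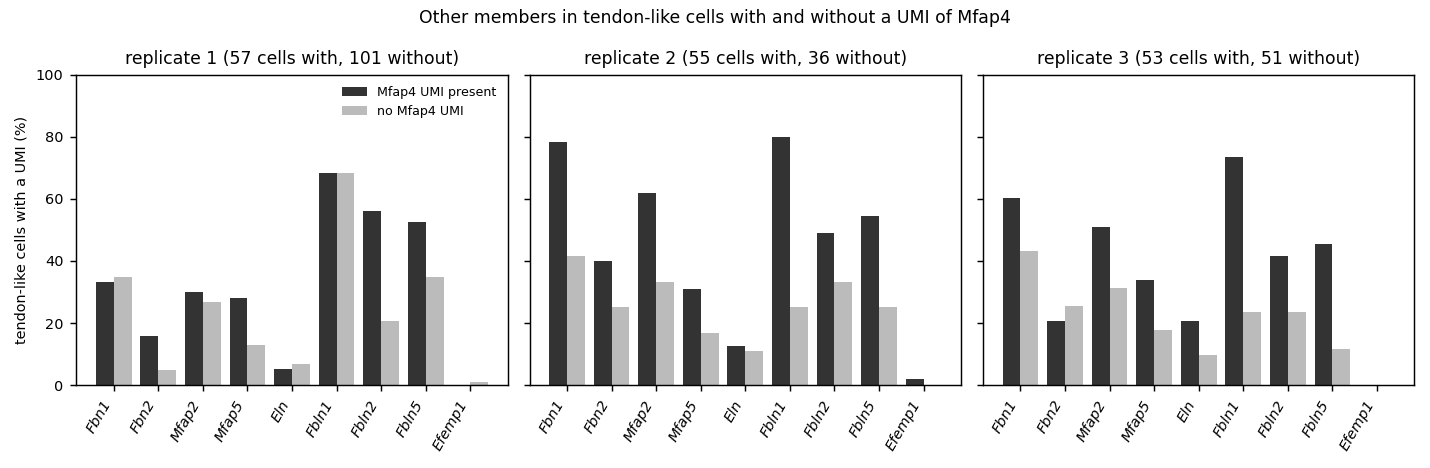
Percentage of tendon-like cells with a UMI of each other member, in cells with and without a Mfap4 UMI, in replicates 1, 2 and 3. Fbln2, Fbln5, Mfap5 and Mfap2 are more often seen with Mfap4 in each library, whereas Fbln1 differs in replicates 2 and 3 (80% against 25%, 73.6% against 23.5%) and not in replicate 1.

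Patterns were compared across the 23 sums of lineage and library with at least 20 cells, as log2(CPM + 10). The search covered 17392 genes with at least 50 UMIs in these sums. Genes of the marker lists were left out of it, so no lineage marker could appear as a partner. The points share libraries, and pericyte-like and Schwann-like cells have 1 sum each. Mfap4 was closest to Chodl (Pearson r = 0.997), Ptx4 (0.995) and the myostatin gene Mstn (0.989). As Mfap4 was near 0 outside tendon-like cells, these values rest mainly on the tendon-like sums. Any gene confined to those sums would score high. Mfap5 was closest to Anpep (0.971), Mfap2 to Cpxm1 (0.907), and Fbn1 to the epidermal growth factor receptor gene Egfr (0.965) and Ltbp2 (0.947). Fbn2 went with Pcdh18 (0.927) and Serpinf1 (0.899), and Eln with Ntf3 (0.924), Dgkb (0.920) and Itga8 (0.912). Fbln1 was closest to Fmo1 (0.973), Fbln2 to the collagen gene Col14a1 (0.922), and Fbln5 to Prr16 (0.968) and Vegfc (0.951). Efemp1 had the least similar partners, led by Arhgap32 (0.862) and Ptx3 (0.831). Between members the highest values were Mfap5 with Fbln2 (0.857), Fbln1 with Fbln5 (0.816) and Fbn1 with Fbln5 (0.813), and the lowest was Mfap4 with Efemp1 (-0.295).

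Of 32 other genes of microfibril assembly, cross-linking and signalling, 18 were called between tendon-like and CAR-like cells (13 higher, 5 lower in tendon-like cells) where 20.8% of all genes were called, and 16 against osteoblast-like cells (13 higher, 3 lower) beside 22.6%. Against chondrocyte-like cells 20 were called (12 higher, 8 lower) beside 31.9%, and against fibroblast-like cells 7 (5 higher, 2 lower) beside 3.83%. Their median log2 fold changes were 0.32, 0.48, 0.38 and 0.56 in this order, and those of all genes -0.05, 0.10, -0.14 and 0.09. From each list the called genes with the lowest and highest log2 fold change are given. Among the 5 lysyl oxidases, which cross-link elastin and collagen, Loxl1 was 123 ± 6.05 CPM in tendon-like cells and 329 ± 56.9 CPM in CAR-like cells (SD, n = 3), a log2 fold change of -1.40. It was above fibroblast-like cells by 2.31 (adjusted p = 0.00182), chondrocyte-like cells by 3.40 and osteoblast-like cells by 4.17. Loxl3 was higher in tendon-like than CAR-like cells by 1.38, fibroblast-like cells by 1.31 and osteoblast-like cells by 0.86, and Loxl4 was lower than in chondrocyte-like cells (-2.43).

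The latent TGF-β binding proteins, which anchor the stored growth factor to microfibrils, were all 4 higher in tendon-like than osteoblast-like cells, from Ltbp1 (0.96) to Ltbp2 (4.86). Ltbp4 was 86.0 ± 4.53 CPM in tendon-like, 172 ± 40.2 CPM in fibroblast-like and 5.10 ± 5.38 CPM in CAR-like cells (SD, n = 3). Its log2 fold change was 3.58 against CAR-like cells, where Ltbp1 was lower (-1.40), and 4.33 against chondrocyte-like cells, where Ltbp2 was the other one called (2.92). None of the 4 was called between tendon-like and fibroblast-like cells. Of the ligands themselves, Tgfb3 was higher in tendon-like than CAR-like cells by 1.73 and chondrocyte-like cells by 2.17. Tgfb2 was higher than in CAR-like cells (1.13) and osteoblast-like cells (2.56) and lower than in chondrocyte-like cells (-1.76), and Tgfb1 was lower than in osteoblast-like cells (-1.31). None was called against fibroblast-like cells.

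Itga8, the integrin α8 subunit by which the study marked its stromal cells, had the largest log2 fold change of the integrins called in all 4 tendon-like comparisons. Its level was 75.7 ± 18.9 CPM in tendon-like, 7.94 ± 3.91 CPM in fibroblast-like and 6.33 ± 3.58 CPM in CAR-like cells (SD, n = 3), and 278 CPM in the pericyte-like cells of replicate 1. The log2 fold change was 3.40 ± 0.52 over fibroblast-like (adjusted p = 0.000232), 3.44 over CAR-like, 4.93 over osteoblast-like and 3.20 over chondrocyte-like cells. Itga5 was lower in tendon-like than fibroblast-like cells (-1.10) and chondrocyte-like cells (-2.45), and Itgb3 had 3 UMIs in tendon-like cells, with a CAR-like to tendon-like ratio of 4.83 (95% exact Poisson interval 1.52 to 24.6). Itgb1 was higher than in osteoblast-like cells by 0.58.

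Of 12 other assembly proteins, the elastin interface protein Emilin3 was higher in tendon-like than CAR-like cells by 3.99 and chondrocyte-like cells by 3.66, Adamtsl3 was higher than in osteoblast-like cells by 5.37, and Thsd4, which binds fibrillin, was lower than in CAR-like cells (-3.17). Adamtsl2, whose product binds fibrillin and latent TGF-β binding proteins, had no UMI in tendon-like cells, and was at least 7.77-fold higher in fibroblast-like cells, 2.43-fold in osteoblast-like cells and 1.49-fold in chondrocyte-like cells, with tendon-like cells set at 3 UMIs over the group. Adamts17 was the highest called assembly protein in tendon-like against fibroblast-like cells, with 40 UMIs against 1 and a ratio of 13.7 (95% exact Poisson interval 2.33 to 555, adjusted p = 0.0425).

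Between fibroblast-like and chondrocyte-like cells 21 of the 32 were called (9 higher, 12 lower) where 19.1% of all genes were called (890 higher, 1678 lower). The 3 lysyl oxidases called were all lower in fibroblast-like cells, from Loxl4 (-2.46) to Loxl2 (-1.27). Ltbp4 (5.31), Emilin3 (3.12), Itgb3 (2.63) and Tgfb3 (1.44) were the highest of their lists, and Ltbp1 (-0.97), Itgav (-1.48) and Tgfb2 (-2.25) the lowest of theirs. The lowest assembly protein was Adamts17, with 1 UMI in fibroblast-like cells and a chondrocyte-like to fibroblast-like ratio of 8.69 (95% exact Poisson interval 1.56 to 343).

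Between the cartilage surface and the other chondrocyte-like cells 24 of the 32 were called (14 higher, 10 lower) where 41.5% of all genes were called. The highest of each list at the surface were Lox (1.35), Ltbp4 (1.84), Adamtsl2 (5.12), Itga5 (1.34) and Tgfb1 (0.85). The lowest were Loxl1 (-1.77), Ltbp1 (-2.31), Emilin1 (-1.08), Itga8 (-2.01) and Tgfb2 (-2.27).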

How the data were processed

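The deposited values are raw UMI counts per gene and barcode, which the authors made with Cell Ranger 7.1.0 on mm10 (10x 3′ chemistry). Barcodes with fewer than 200 genes or over 20% mitochondrial UMIs were removed. A cell entered a lineage with UMIs of at least 3 of 8 markers and a summed marker CPM above a floor, which was set on the marker distributions after they were seen. No doublet caller was run, and cells in several gates were left out. The 10 members, marker lists and pathway lists were chosen with earlier results of these data known. Every member is named, and pathway genes by the smallest and largest called fold change of each list. UMIs were summed over lineage and library (at least 20 cells, 23 sums) and fitted with edgeR 4.0.16 (TMM, quasi-likelihood test, Benjamini-Hochberg adjustment over all genes) in R 4.3.3, with the library as a block because lineages of 1 library come from the same animals or pool. The methods call the libraries independent samples. The p-values rest on a spread estimated in 1 fit over all lineage sums of the 3 libraries, not on the compared lineages alone. The cartilage surface comparison had its own fit. Leaving out a library also leaves fewer sums to the fit. The SE of a log2 fold change was derived from the test, as its absolute value over the square root of the F statistic. Library totals were 20985636, 79905165 and 69890252 UMIs, and intervals cover counting error only. Where a lineage had no UMI, a floor of 3 UMIs over the group gave the bound. The study gives a larger cell total than the 20307 barcodes used here. Gene positions are those of GENCODE vM21 on GRCm38. DESeq2 1.42.0, other scalings, gates, filters and left-out libraries were alternatives.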

Additional observations from a re-analysis of the deposited data

How the results depend on the processing

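Of 82 recomputed counts of called genes, 66 stayed within 1.5 times the reported one. The exceptions were tendon-like against fibroblast-like cells with marker floors doubled (319) or the tendon list without Tnmd and Kera (253), fibroblast-like against chondrocyte-like cells with floors doubled (1687), and the cartilage surface with DESeq2 (3304). Leaving out a replicate gave 191 to 500 genes for tendon-like against fibroblast-like, 2203 to 4401 against chondrocyte-like, 1153 to 3523 against osteoblast-like and 1510 to 2598 against CAR-like cells, 1135 to 2667 for fibroblast-like against chondrocyte-like cells, and 1414 to 8698 at the cartilage surface. Requiring 4 of 8 markers left too few fibroblast-like cells for a value. With mixed cells kept, tendon-like values that remained called came to 3.26 for Fbn1 and 4.04 for Fbln5 against osteoblast-like cells, 1.38 for Fbln1 against fibroblast-like cells, and 8.24 and 8.45 for Mfap4 against CAR-like and chondrocyte-like cells. In the fit without the replicate block the calls of Mfap2 in tendon-like against fibroblast-like cells (adjusted p = 0.0862) and of Fbln5 at the cartilage surface (adjusted p = 0.129) were lost. The split into higher and lower calls moved with the scaling: 42.2% of calls were higher in tendon-like than chondrocyte-like cells with TMM, 54.2% with RLE and 54.8% with DESeq2. For fibroblast-like against chondrocyte-like cells these shares were 34.7%, 53.3% and 57.5%, and for tendon-like against fibroblast-like cells 58.0% with TMM and 47.9% with DESeq2. RLE moved the median log2 fold change of all genes from -0.14 to 0.03 and from -0.28 to -0.02 in the first 2 of these.

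Signs turned only in 24 log2 fold changes that were not called under either setting. In tendon-like against fibroblast-like cells Fbn1 turned to 0.11 with floors doubled, 0.0028 with mixed cells kept and 0.20 without replicate 1 (the lowest without a replicate was -0.24), and Mfap5 to -0.37 without Tnmd and Kera and -0.38 without replicate 3 (highest 0.60). In fibroblast-like against chondrocyte-like cells Eln turned to -0.032 and Efemp1 to -0.044 with floors doubled, Efemp1 to -0.52 without replicate 1 (highest 1.80), and Mfap4 to -4.89 without replicate 3, where fibroblast-like cells had no UMI of it (highest 1.43). At the cartilage surface Mfap2 turned to -0.038 with at least 4 markers, -0.00096 without Aspn, Sfrp2 and Itgbl1, -0.070 without the deepest cells, -0.039 with no low-count filter, -0.020 with no block and -0.018 without replicate 2 (highest 0.030). Eln there turned to -0.073 with at least 4 markers, -0.36 with floors doubled, -0.062 without Tnmd and Kera, -0.13 without Aspn, Sfrp2 and Itgbl1, -0.034 with mixed cells kept, -0.082 with DESeq2, -0.018 with no low-count filter, -6.7e-05 with no block and -0.48 without replicate 3 (highest 0.27). The cause was not tested. Fibroblast-like values rest on 27 to 46 cells a library.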
